A study of Homo sapiens with 38 samples.

Results

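The comparison described here is between cytoplasmic RNA of HCT116 cells edited in AGO1, AGO2 and AGO3 and cytoplasmic RNA of HCT116 cells edited in AGO1 and AGO2 alone. Compared are the 6 libraries with those genotype and fraction labels, out of 30 RNA-seq libraries and 38 labelled samples in the series. HCT116 is a human colorectal carcinoma line, and the labels give the genotypes as AGO1-/-, AGO2-/-, AGO3-/- and as AGO1-/-, AGO2-/-. The loss of AGO1 and AGO2 is therefore common to both sides, and the labelled difference is the loss of AGO3. Both lines came from a commercial CRISPR editing service, each genotype is 1 line, and no treatment was given. The AGO1/2 knockout libraries were of culture passages 9, 10 and 11 and the AGO1/2/3 knockout libraries of passages 11, 12 and 14. Passage 11 is the sole passage on both sides, so that genotype, clone and passage cannot be told apart. No library was left out of the fit, and its p-values measure the spread between cultures of 1 line. Cytoplasm libraries of wild-type (passages 27 to 29), AGO1 knockout (6 to 8) and AGO2 knockout (8 to 10) cells are used as reference levels. They also enter a fit of all 15 cytoplasmic libraries, whose p-values measure a spread pooled over all these lines. Wild-type cytoplasm libraries held 39476205 to 43281746 estimated reads. Nuclear libraries are given beside the cytoplasmic values.

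Argonaute (AGO) proteins hold a microRNA and, through pairing of its seed with a messenger RNA, usually in the 3′ untranslated region (UTR), bring the silencing machinery to that transcript. TNRC6 proteins bind AGO and recruit deadenylases of the CCR4-NOT and PAN2-PAN3 complexes. Decapping and 5′-to-3′ decay follow, so that silenced messages are lost from the cytoplasm. AGO2 is the AGO protein best known for cutting a fully paired target, while AGO1, AGO3 and AGO4 act mainly by recruitment. The comparison asks which cytoplasmic transcripts differ when AGO3 is removed from cells that already lack the other 2 edited family members.

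The 6 libraries held 76102958 to 79731793 estimated reads. Correlations of log2 CPM (reads of a gene relative to the scaled library total) were 0.9882 to 0.9913 for the 6 pairs of libraries within a line and 0.9851 to 0.9916 for the 9 pairs between the lines, so that the ranges overlapped. The first principal component of all 15 cytoplasmic libraries held 44.17% of the variance and set both lines (49.26 to 61.03) apart from the wild-type, AGO1 and AGO2 knockout libraries (all below 0). The passage 11 library of the AGO1/2 knockout lay nearest to the other line, with a median absolute log2 distance of 0.0992 to the AGO1/2/3 knockout mean, against 0.137 for passage 9 and 0.194 for passage 10. It was the nearest of the 3 AGO1/2 knockout libraries for 53.5% of the 16509 genes tested. Of 9 markers of blood, endothelial, liver and glial cells, 7 were too low to be tested, with no value above 0.042 TPM (a level scaled for transcript length and library total), and the summed TPM of all 9 was 2.97 to 4.11 in AGO1/2 knockout and 2.82 to 3.66 in AGO1/2/3 knockout libraries.

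AGO3 messenger RNA did not separate the lines. The CPM of AGO3 were 79.7, 84.8 and 87.9 in AGO1/2 knockout libraries of passages 9, 10 and 11, and 80.5, 84.6 and 84.1 in AGO1/2/3 knockout libraries of passages 11, 12 and 14. The groups overlapped, and the log2 difference was -0.02 ± 0.07 (SE; edgeR adjusted p = 0.894; exact two-sided permutation p on TPM = 0.8, where 0.1 is the smallest that 3 libraries against 3 allow). In TPM the AGO3 level was 8.48 ± 0.64 (SD, n = 3) in AGO1/2 knockout, 8.64 ± 0.66 in AGO1/2/3 knockout and 8.39 ± 1.55 in wild-type cytoplasm. The longest transcript, AGO3-203, stood at 1.69, 1.82 and 2.15 TPM in AGO1/2 knockout and at 2.02, 2.18 and 2.13 TPM in AGO1/2/3 knockout libraries. An edited gene can still be transcribed, so that the RNA level does not check the AGO3 label, and the protein, which the study examined by western blot, was not analysed here.

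The groups also overlapped for AGO4, and AGO1 and AGO2 differed by little. AGO1 stood at 15.1, 16.5 and 16.5 CPM against 14.8, 15.5 and 15.0 CPM, and its mean TPM was 0.920 and 0.917, against 12.9 in wild-type cells. AGO2 stood at 451, 509 and 453 CPM in AGO1/2 knockout and 381, 428 and 431 CPM in AGO1/2/3 knockout libraries. All 3 values of the second line lay below the first, with a log2 difference of -0.19 ± 0.08 (SE; adjusted p = 0.195), and the mean TPM of AGO2 in wild-type cells was 36.0, against 28.9 and 27.1 here. AGO4 stood at 18.8, 19.6 and 25.01 CPM against 20.4, 19.9 and 24.0 CPM, so that the groups overlapped.

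PCDH7, a protocadherin of the cell surface that mediates adhesion between cells, was the single gene that passed the test in the fit of these 6 libraries (edgeR's quasi-likelihood test, Benjamini-Hochberg adjusted p of at most 0.05). The gene lies at chr4:30720369-31146805 (hg38). PCDH7 stood at 21.7, 16.5 and 24.4 CPM in AGO1/2 knockout libraries and at 66.8, 52.7 and 63.3 CPM in AGO1/2/3 knockout libraries, with no overlap. It rose by 1.55 ± 0.14 on the log2 scale (adjusted p = 0.0316). Its mean level was 2.94 TPM in AGO1/2 knockout, 9.33 TPM in AGO1/2/3 knockout and 24.3 TPM in wild-type cytoplasm.

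The call of PCDH7 is 1 of 16509 genes tested, or 0.00606%, with no gene called lower. At an unadjusted p under 0.05 there were 4037 genes (24.5%), of which 2090 were higher (12.7%) and 1947 lower (11.8%), and at an adjusted p of at most 0.1 there were 1100 (6.66%), 614 higher (3.72%) and 486 lower (2.94%). The 2 groups did not overlap in CPM for 4912 genes (29.8%), with AGO1/2/3 knockout above for 2436 (14.8%) and below for 2476 (15%). On the TPM scale the same split was 4726 above and 787 below. There the median log2 difference of all genes was 0.08 with log2(TPM + 1) and 0.14 with log2(TPM + 0.1). Counts of genes above and below therefore hold for CPM scaled by trimmed means (TMM).

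The number of calls differed widely between fits. With all 15 cytoplasmic libraries in the fit, 872 of 17605 genes were called (4.95%), 435 higher (2.47%) and 437 lower (2.48%). DESeq2 on the 6 libraries called 1682, of which 863 were higher. Leaving out the AGO1/2 knockout library of passage 11 gave 3124 calls in the 6-library fit, while leaving out any other library gave 0 to 6. In the 15-library fit, the count was 13, 5 and 2312 without passages 9, 10 and 11 of the AGO1/2 knockout. It was 7, 9 and 794 without passages 11, 12 and 14 of the AGO1/2/3 knockout. The genes overlapped between fits: 793 of the 872 (90.9%) were among the DESeq2 calls, where they were 47.1% of the list.

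**Figure D1:**
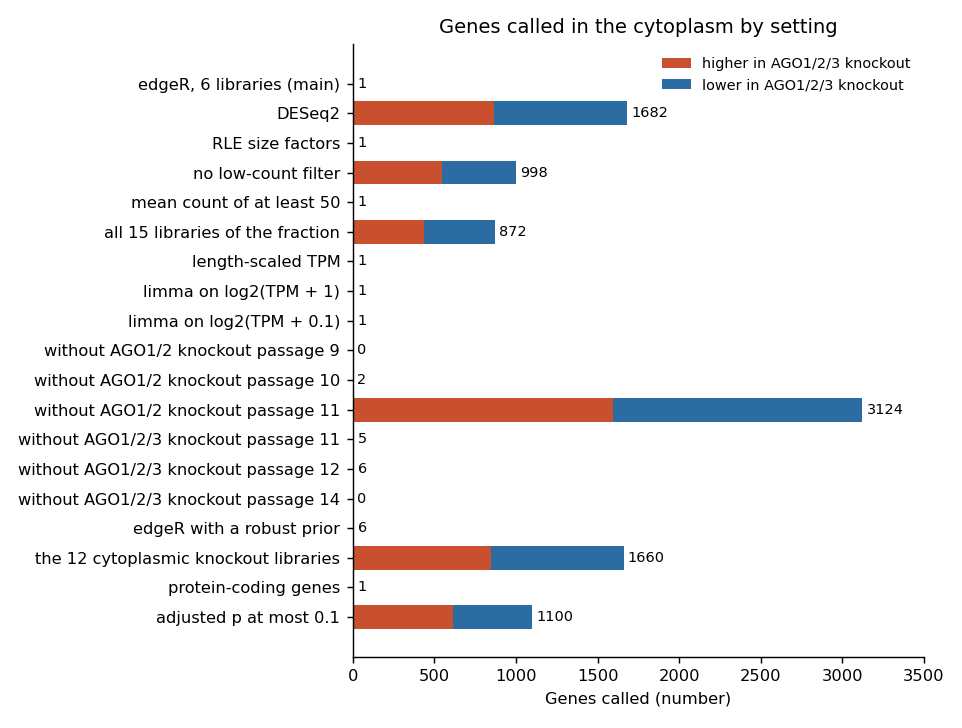
Bars give the number of genes called higher (red) and lower (blue) in AGO1/2/3 than in AGO1/2 knockout cytoplasm under each setting, with the total printed beside each bar. The count was 1 in the 6-library edgeR fit, 872 with all 15 libraries, 1682 with DESeq2 and 3124 without the AGO1/2 knockout library of passage 11.

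Since the 6-library fit called 1 gene, the naming rule was applied to the calls of the 15-library fit, a step chosen after the counts were seen. It kept 637 protein-coding genes that were called there, did not overlap between the groups and reached a mean of 5 TPM on the higher side, of which 311 were higher and 326 lower in AGO1/2/3 knockout cells. The 12 with the largest differences each way are described next. Their log2 differences and SE are those of the 6-library fit, where only PCDH7 was called, and their adjusted p those of the 15-library fit. For 23 of the 24, the AGO1/2 knockout library of passage 11 was the nearest to the AGO1/2/3 knockout mean.

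The 12 genes with higher levels in AGO1/2/3 knockout cells, PCDH7 among them, have unlike known roles. ODAD2, which codes for a docking component of ciliary dynein arms, stood at 15.2, 11.9 and 17.5 CPM in AGO1/2 knockout and at 33.2, 32.0 and 30.7 CPM in AGO1/2/3 knockout libraries (log2 difference 1.10 ± 0.12, adjusted p = 0.00137). KIAA0040 stood at 14.6, 12.4 and 30.4 CPM against 50.5, 45.2 and 55.7 CPM, a log2 difference of 1.40 ± 0.29. SCNN1A, the alpha subunit of the epithelial sodium channel, stood at 18.5, 11.1 and 29.7 CPM against 37.0, 42.3 and 43.3 CPM. In each of these genes the highest AGO1/2 knockout library was passage 11, and it remained below every AGO1/2/3 knockout library.

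EPRS1, the tRNA synthetase that charges glutamate and proline tRNAs, was the most abundant of the 12 higher genes and stood at 119, 93.9 and 149 CPM against 207, 209 and 199 CPM (log2 difference 0.76 ± 0.15, adjusted p = 0.0175). ARHGAP18, a GTPase-activating protein for RhoA, stood at 79.6, 66.8 and 112 CPM against 156, 139 and 141 CPM. MAGI1, a scaffold protein of tight junctions, stood at 23.2, 20.5 and 32.2 CPM against 42.2, 42.3 and 43.4 CPM, and the AGO1/2/3 knockout libraries differed among themselves by little. The other named genes were PRF1 (perforin), SYT1 (a calcium sensor of vesicle release), MAPT (tau), ETV1 (an ETS transcription factor) and TNIK (a kinase of Wnt signalling), with log2 differences of 1.08, 0.86, 0.80, 0.79 and 0.76 and adjusted p from 0.0251 to 0.0357. EPRS1, MAPT and TNIK had nuclear log2 differences of 0.19, 0.25 and 0.45, while the nuclear value of MAGI1 was 0.72, against 0.75 in the cytoplasm.

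**Figure D2:**
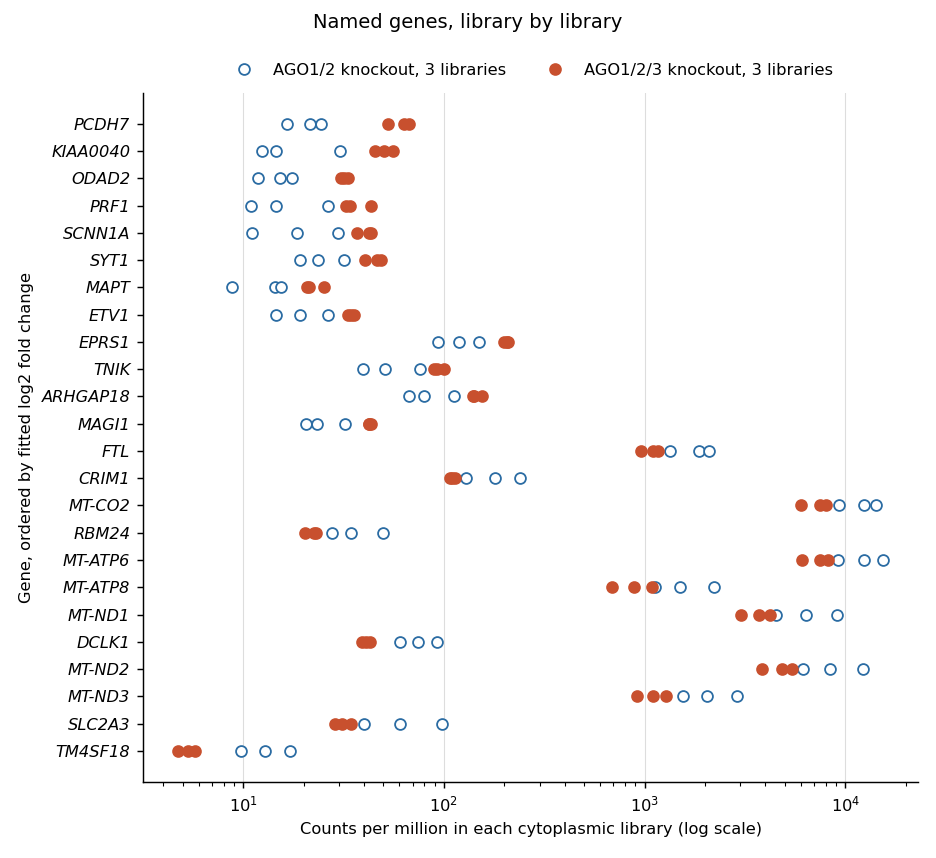
Each point is the CPM of a gene in 1 cytoplasmic library on a log axis, for the 12 genes of largest difference in each direction. Open points are the AGO1/2 knockout and filled points the AGO1/2/3 knockout libraries, and for all 24 genes the 2 sets of points do not overlap, as the naming rule required.

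The 12 genes with lower levels in AGO1/2/3 knockout cells included 6 messages encoded by the mitochondrial genome and 6 nuclear-encoded genes. TM4SF18, a membrane protein of the tetraspanin-like TM4SF family, stood at 9.79, 17.1 and 12.9 CPM against 4.75, 5.32 and 5.74 CPM (log2 difference -1.33 ± 0.18, adjusted p = 0.0138). SLC2A3, the glucose transporter GLUT3, stood at 60.2, 98.3 and 39.9 CPM against 34.5, 28.7 and 31.0 CPM, so that the passage 11 AGO1/2 knockout library was close to the other line. DCLK1, a microtubule-associated kinase, stood at 74.3, 92.3 and 60.3 CPM against 42.7, 41.1 and 39.3 CPM (log2 difference -0.88 ± 0.14, adjusted p = 0.0259). DCLK1 was low in wild-type cytoplasm, at 0.184 TPM, against 9.19 TPM in AGO1/2 knockout and 5.64 TPM in AGO1/2/3 knockout cells.

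FTL, the light chain of the iron store ferritin, stood at 1872, 2099 and 1336 CPM against 961, 1095 and 1166 CPM (log2 difference -0.72 ± 0.15, adjusted p = 0.0178). CRIM1, a membrane protein that binds bone morphogenetic proteins, stood at 179, 238 and 129 CPM against 108, 110 and 113 CPM. RBM24, an RNA-binding regulator of splicing, stood at 34.6, 49.7 and 27.7 CPM against 22.5, 20.3 and 23.1 CPM. In all 3 genes the AGO1/2 knockout libraries spread widely, with passage 10 the highest, while the AGO1/2/3 knockout libraries lay close together.

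No long non-coding RNA with a symbol passed the rule on the higher side. On the lower side the 4 with the largest differences were named, the most that the rule takes. LINP1, a non-coding RNA linked to DNA end joining, stood at 4.55, 5.05 and 3.44 CPM in AGO1/2 knockout and 1.73, 2.42 and 2.71 CPM in AGO1/2/3 knockout libraries (log2 difference -0.93 ± 0.20, adjusted p = 0.0277). SVIL-AS1 stood at 21.6, 25.9 and 18.5 CPM against 14.5, 17.1 and 15.3 CPM. Below the 5 TPM limit of the rule, and named after their values were seen, the protein-coding genes with large differences included PLA2G4A (log2 difference 2.01), FRY (2.47), SAMD5 (1.36), THBS1 (-1.48) and RND3 (-1.76).

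Some of these genes lay beside each other, which was noticed after their values were seen. PLA2G4A, the cytosolic phospholipase that frees arachidonic acid, and PTGS2, the cyclooxygenase that uses it, are consecutive tested protein-coding genes at chr1:186828949-186988981 and chr1:186671791-186680922. PLA2G4A stood at 0.858, 0.505 and 0.760 CPM against 3.12, 3.28 and 2.16 CPM, and PTGS2 at 0.041, 0.042 and 0.177 CPM against 0.429, 0.292 and 0.455 CPM, low levels in every library. Of the protein-coding genes tested from position 184387029 up to PTGS2, NIBAN1 (log2 difference 1.77), TRMT1L, SWT1, TPR (0.34) and ODR4 also lay above without overlap. C1orf21, EDEM3 and IVNS1ABP overlapped, and RNF2 (-0.12) lay below. On chromosome 10, MKX, ODAD2 and MPP7 are consecutive tested protein-coding genes from position 27672874 to 28334486, with the antisense MKX-AS1 (0.22 CPM at most) between them. MKX, a homeobox gene, stood at 24.5, 25.3 and 22.4 CPM against 34.4, 32.0 and 31.3 CPM, and MPP7, a polarity scaffold, at 41.3, 38.1 and 44.5 CPM against 69.7, 59.4 and 62.4 CPM. The flanking protein-coding genes RAB18 and WAC had log2 differences of -0.18 and -0.01, so that neither was higher.

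All 13 messages encoded by the mitochondrial genome were lower in AGO1/2/3 than in AGO1/2 knockout cytoplasm, with no overlap in any of them. These messages code for subunits of the respiratory chain and ATP synthase and are made inside the organelle. Their median log2 difference was -0.70, with a range of -0.97 to -0.53, against a median of 0.01 over all genes tested. The 15-library fit called 12 of the 13, where it called 2.48% of all genes lower, and the 6-library fit called none. MT-CO1, a subunit of cytochrome c oxidase, stood at 40512, 47201 and 33226 CPM in AGO1/2 knockout and 23227, 27491 and 27815 CPM in AGO1/2/3 knockout libraries. MT-ND3, a subunit of complex I, had the largest difference, with 2044, 2875 and 1545 CPM against 912, 1285 and 1100 CPM.

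Together the 13 messages held 15.4%, 18.2% and 12.7% of gene reads in AGO1/2 knockout libraries of passages 9, 10 and 11. They held 8.90%, 11.04% and 10.6% in AGO1/2/3 knockout libraries of passages 11, 12 and 14. The share was 9.24% to 10.1% in AGO2 knockout, 9.58% to 9.98% in wild-type and 7.46% to 8.27% in AGO1 knockout cytoplasm, so that the AGO1/2 knockout libraries stood above all other groups. In nuclear RNA the share was small and went the other way, at 0.265%, 0.295% and 0.277% against 0.367%, 0.287% and 0.294%, with overlapping groups. The median log2 difference of the 13 messages was 0.23 in the nucleus. The part of the mitochondrial share in the other cytoplasmic differences was not tested.

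**Figure D3:**
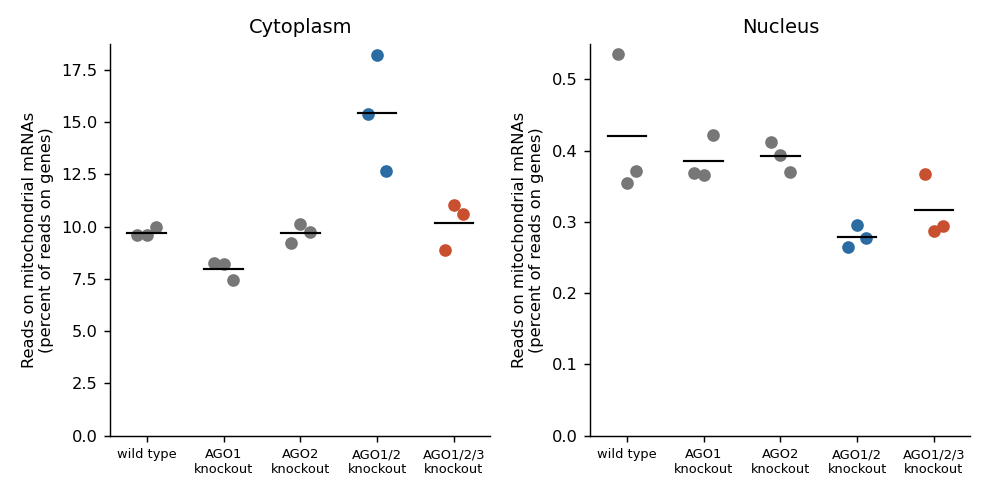
Points give the percent of gene reads that fell on the 13 mitochondrial messages in each library, and lines the group means, for cytoplasm (left) and nucleus (right, on its own scale). The AGO1/2 knockout cytoplasm, at 12.7% to 18.2%, lay above the AGO1/2/3 knockout cytoplasm, at 8.90% to 11.04%, while the nuclear shares were all below 0.6% and overlapped.

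Messages for cytosolic ribosomal proteins were also lower, by a small amount. Of 81 tested, 37 (45.7%) lay below without overlap, against 15% of all genes, and 4 lay above, with a median log2 difference of -0.07. In the 15-library fit 7 were called, all lower, where 2.48% of all genes were called lower. RPSA, a protein of the small subunit, stood at 1753, 1861 and 1544 CPM against 1401, 1391 and 1503 CPM, and RPS20 at 800, 851 and 745 CPM against 682, 699 and 708 CPM. On the log2(TPM + 1) scale the median of the list was 0.09 while that of all genes was 0.08, so that the list was not lower than other genes there. These genes have many processed pseudogenes that can share their reads.

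The next list joins enzymes of sugar breakdown with glucose transporters and hypoxia targets, and 20 of 24 tested members had positive differences. Of the 24 tested members of the glycolysis and hypoxia list, 14 (58.3%) lay above without overlap, against 14.8% of all genes, and 2 lay below. The median log2 difference was 0.21, against 0.01 over all genes tested. The 15-library fit called 5 higher and 1 lower, where it called 2.47% and 2.48% of all genes. PKM, pyruvate kinase, stood at 1087, 899 and 1227 CPM against 1618, 1556 and 1403 CPM, PGK1 at 221, 195 and 230 CPM against 327, 304 and 265 CPM, and ENO1 at 931, 844 and 906 CPM against 1286, 1295 and 1084 CPM. In the nucleus the log2 differences of these genes were 0.04, 0.00 and -0.02. The glucose transporter SLC2A3, described above, lay below, and SLC2A1, the common glucose transporter, overlapped between the groups.

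All 25 genes of cholesterol synthesis and uptake had positive log2 differences, with a median of 0.36, against 0.01 over all genes tested. Above without overlap lay 4 (16%), near the 14.8% of all genes. The AGO1/2 knockout libraries themselves spread widely. SCD, a fatty acid desaturase, stood at 1861, 1017 and 3734 CPM against 2619, 3728 and 4149 CPM. FDPS, which makes farnesyl diphosphate, stood at 88.9, 67.6 and 102 CPM against 115, 134 and 113 CPM, and SQLE, squalene epoxidase, at 38.8, 32.2 and 48.2 CPM against 50.4, 56.0 and 51.1 CPM. FDPS and SQLE were the 2 members called in the 15-library fit, where 2.47% of all genes were called higher. Without the passage 10 AGO1/2 knockout library the median was 0.20, and without passage 11 it was 0.55.

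Genes of the amino acid and endoplasmic reticulum stress responses had a positive difference in 23 of 26 cases, but the AGO1/2/3 knockout cultures were unlike each other. Of 26 tested, 9 (34.6%) lay above without overlap, against 14.8% of all genes, and 1 below. The median log2 difference was 0.37, against 0.01 over all genes tested. The 15-library fit called 1, SHMT2, where it called 2.47% of all genes higher. DDIT4, an inhibitor of mTOR signalling, stood at 21.1, 12.6 and 31.1 CPM in AGO1/2 knockout libraries and 90.9, 31.6 and 70.5 CPM in AGO1/2/3 knockout libraries of passages 11, 12 and 14. TRIB3, a pseudokinase induced by ATF4, stood at 22.5, 18.1 and 26.2 CPM against 69.8, 26.7 and 55.8 CPM, and DDIT3, the stress factor CHOP, at 7.46, 5.85 and 9.22 CPM against 30.2, 7.21 and 22.9 CPM. In each of the 3 genes the passage 12 library was close to the AGO1/2 knockout libraries. Without it the 6-library fit called 6 genes, 4 of them from this list (DDIT3, SESN2, STC2 and TRIB3) with log2 differences of 1.82, 1.27, 1.06 and 1.496. In DDIT3 and TRIB3 that library was the nearest to the other line, so that calls made without it are no support. ASNS, asparagine synthetase, was above in every culture, at 24.2, 15.3 and 38.7 CPM against 82.9, 50.8 and 73.6 CPM.

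Of 17 tested epithelial genes, 16 had positive log2 differences, with a median of 0.34, against 0.01 over all genes tested. Above without overlap lay 9 (52.9%), against 14.8% of all genes, and none lay below. The 15-library fit called 1, ESRP1, where it called 2.47% of all genes higher. ESRP1, a splicing factor of epithelial cells, stood at 25.7, 21.99 and 35.8 CPM against 46.1, 44.9 and 43.8 CPM. CDH1, the adhesion protein E-cadherin, stood at 6.50, 5.99 and 11.6 CPM against 11.8, 11.6 and 15.3 CPM, and CLDN7, a claudin, at 18.2, 14.1 and 23.6 CPM against 29.3, 28.4 and 30.8 CPM. The passage 11 AGO1/2 knockout library was level with the lowest of the other line for CDH1. EPCAM, at 87.0, 98.7 and 96.5 CPM against 94.3, 97.8 and 100.8 CPM, and the intestinal factor CDX2 overlapped between the groups, and both were detected in every library.

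Of 10 tested genes of the mesenchymal state, 7 had positive log2 differences, with a median of 0.18, against 0.01 over all genes tested. Without overlap, 2 (20%, S100A4 and COL1A1) lay above and 1 (10%, ZEB1) below, against 14.8% and 15% of all genes. None was called in the 15-library fit. The difference between this list and the epithelial list was not tested. ZEB1, a repressor of epithelial genes, stood at 24.96, 23.4 and 21.7 CPM against 20.7, 19.1 and 17.7 CPM (log2 difference -0.29 ± 0.08). Among 18 tested integrins, ITGB8 and ITGAE were called lower in the 15-library fit, which called 2.48% of all genes lower. ITGB8 stood at 27.7, 35.6 and 32.1 CPM against 19.2, 22.2 and 22.4 CPM. Of 22 tested collagen chains, 18 had positive differences (median 0.17, against 0.01 over all genes tested). Above lay 6 (27.3%) and below none, those 6 at under 10 CPM. Of 16 tested keratins, 4 (25%) lay above, KRT8, KRT19, KRT20 and KRT23, and 4 (25%) below. Of 8 tested claudins, 1 (12.5%) lay above and none below.

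Genes for the proteins that carry out silencing downstream of AGO lay on both sides. Of 29 tested, 10 (34.5%) lay above and 5 (17.2%) below without overlap, against 14.8% and 15% of all genes. The median log2 difference was 0.09. The 15-library fit called 4 higher (MOV10, TNRC6B, CNOT3 and CNOT1) and 2 lower (CNOT7 and PATL1), against 2.47% and 2.48% of all genes. TNRC6B, a direct partner of AGO, stood at 136, 112 and 164 CPM against 192, 206 and 187 CPM (log2 difference 0.50 ± 0.13, adjusted p = 0.0305 in the 15-library fit). MOV10, a helicase found with AGO, stood at 34.4, 26.9 and 38.3 CPM against 46.9, 50.8 and 43.9 CPM. CNOT7, a deadenylase of the CCR4-NOT complex, went the other way, at 245, 303 and 212 CPM against 180, 182 and 185 CPM (log2 difference -0.48). TNRC6A and TNRC6C also lay above, with log2 differences of 0.22 and 0.23, and were not called.

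Among 19 tested genes of microRNA biogenesis and loading, 7 (36.8%) lay above and 2 (10.5%) below, against 14.8% and 15% of all genes. HSP90AB1 and HSP90AA1, the chaperones that open AGO for loading, stood at 1703, 1442 and 1682 against 2651, 2739 and 2074 CPM, and at 2620, 2315 and 2395 against 3771, 3758 and 2757 CPM. Both were called higher in the 15-library fit, where 2.47% of all genes were, with DIS3L2, a nuclease of uridylated RNA. The nuclear log2 differences of the 2 chaperone genes were 0.01 and -0.12. DICER1, the enzyme that cuts the microRNA precursor, stood at 183, 193 and 182 CPM against 156, 182 and 170 CPM (log2 difference -0.14), and PRKRA, a partner of DICER1, was called lower in the 15-library fit, at 42.9, 47.0 and 37.6 CPM against 35.1, 33.7 and 34.5 CPM. DROSHA and DGCR8 overlapped between the groups.

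MicroRNA targets were followed through lists of textbook targets and through matches of the seed in 3′ UTRs. The sequences below are shown because their seeds define the genes that are compared, with the seed (bases 2 to 8 from the 5′ end) in capitals. They are the RefSeq mature sequences on GRCh38.p14, from MIRLET7A1 (chr9:94175962-94175983, plus strand), MIR17 (chr13:91350618-91350640, plus), MIR21 (chr17:59841273-59841294, plus), MIR200B (chr1:1167160-1167181, plus) and, as microRNAs of liver and blood cells, MIR122 (chr18:58451088-58451109, plus) and MIR142 (chr17:58331245-58331267, minus).
let-7a-5p: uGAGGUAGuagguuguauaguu
miR-17-5p: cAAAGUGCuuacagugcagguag
miR-21-5p: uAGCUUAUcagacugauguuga
miR-200b-3p: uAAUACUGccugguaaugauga
miR-122-5p: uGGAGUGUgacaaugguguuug
miR-142-3p: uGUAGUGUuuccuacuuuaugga

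Genes with and without a seed match in the 3′ UTR had medians close to 0, and the shares below differed more than the medians did. Of 12876 protein-coding genes with a 3′ UTR of at least 50 nt, 11.4% held CTACCTC, the match to the let-7 seed, and their median log2 difference was 0.006, against 0.019 for genes without it. The match to the miR-17 seed, GCACTTT, was in 24.9%, with medians of -0.006 with and 0.025 without it, and 15.1% with a match lay above without overlap, against 17.3% without. Below without overlap were 19% with a miR-17 match, 21.1% with more than 1, and 15.2% without. For miR-21-5p (ATAAGCT) the medians with and without a match were 0.020 and 0.018, and for miR-200b-3p (CAGTATT) they were 0.007 and 0.021. Genes with a miR-200b-3p match were called in the 15-library fit, in either direction, in 8.80% of cases, against 5.66% without and 6.25% of all genes searched. Matches were sought on the transcript strand, overlapping matches were counted, and the miR-200b-3p and miR-200a-3p matches differ by a base, as do the seeds.

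The search covered 17 microRNAs, 12 of epithelial and ubiquitous families and 5 of other tissues. Medians of genes with 1 or more matches lay between -0.006 and 0.023 for all 17, and those without between 0.017 and 0.025. Genes with more than 1 match for the miR-17 seed (958 genes) had a median of -0.02, and those for the miR-142-3p seed (70 genes), a microRNA of blood cells, -0.05. UTR length moved in the same direction, with medians of 0.031, 0.026 and -0.003 for short UTRs, middle UTRs and those of 2128 nt or more. Among the last the medians without and with a miR-17 match were 0.012 and -0.020, and the shares below were 18.0% and 20.1%. No test was made of these differences.

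**Figure D4:**
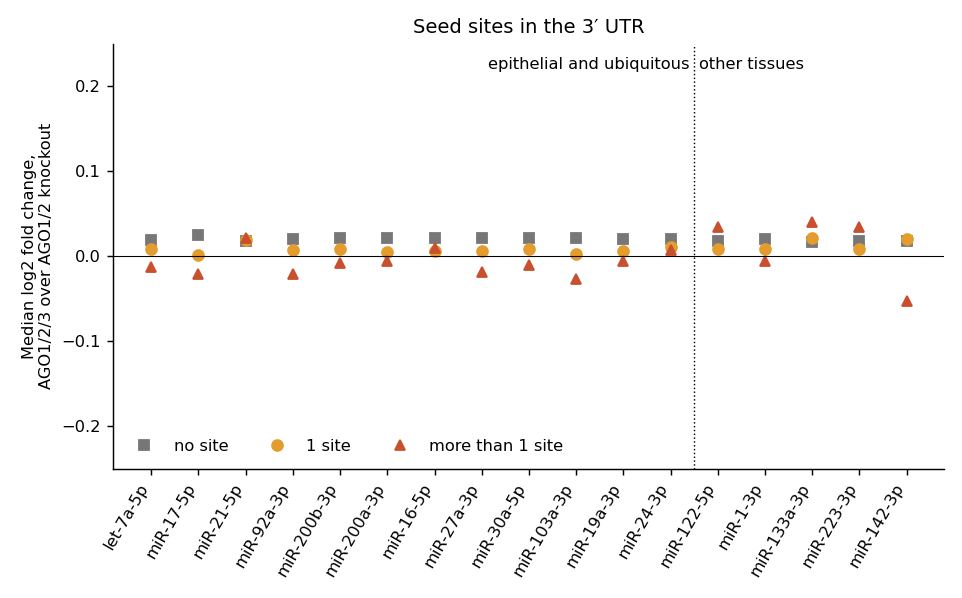
Median log2 difference of CPM between AGO1/2/3 and AGO1/2 knockout cytoplasm for genes with no match (squares), 1 match (circles) and more than 1 match (triangles) to each seed in the 3′ UTR. Medians without a match lay between 0.017 and 0.025, and those with more than 1 match between -0.053 and 0.040, for the 17 microRNAs on both sides of the dotted line between tissue classes.

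The let-7 target list of 25 tested genes had 4 members (16%) above and 6 (24%) below without overlap, against 14.8% and 15% of all genes. Its median log2 difference was -0.09. In the 15-library fit 3 of its members were called lower and 2 higher, where 2.48% and 2.47% of all genes were. CDK6, a kinase of the G1 phase of the cell cycle, stood at 289, 357 and 257 CPM against 189, 202 and 185 CPM (log2 difference -0.65 ± 0.12), and NRAS at 225, 271 and 207 CPM against 178, 183 and 188 CPM. THBS1, the matrix protein thrombospondin, had the widest difference of the list, at 23.2, 39.4 and 12.0 CPM against 8.69, 8.61 and 9.46 CPM. SMARCAD1 was among the members that lay above, at 40.6, 37.9 and 43.1 CPM against 51.5, 52.4 and 46.9 CPM. HMGA2, the best known let-7 target, overlapped, at 558, 683 and 683 CPM against 599, 650 and 627 CPM.

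The other target lists had members on both sides. Among 21 miR-21 targets, 5 (23.8%) lay above and 2 (9.52%) below (median 0.07), against 14.8% and 15% of all genes. FBXO11 and RASA1 were called higher and TPM1 lower in the 15-library fit, where 2.47% and 2.48% of all genes were. PDCD4, an inhibitor of translation and a classic miR-21 target, stood at 14.9, 10.9 and 23.9 CPM against 37.3, 31.4 and 36.4 CPM (log2 difference 1.08 ± 0.23, adjusted p = 0.0698 in the 15-library fit). Among 21 miR-17 family targets, 4 (19%) lay above and 3 (14.3%) below (median 0.02), and none was called in the 15-library fit. Among 12 miR-200 targets, 2 (16.7%) lay above and 4 (33.3%) below (median -0.16), including ZEB1. FHOD1 was called higher and PPM1F lower in the 15-library fit, to be read against the same 2.47% and 2.48%.

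Of 28 tested HOX genes, 11 (39.3%) lay below without overlap, against 15% of all genes, and 2 (7.14%) lay above, against 14.8%, with a median of -0.14. HOXA9, a patterning transcription factor, stood at 100.8, 111 and 102 CPM against 80.0, 85.2 and 89.4 CPM. It was called lower in the 15-library fit, as were 2.48% of all genes. On the log2(TPM + 1) scale the HOX median was -0.01, against 0.08 for all genes.

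Of 25 tested p53 targets, 8 (32%) lay below, against 15% of all genes, and 4 (16%) above, against 14.8%. MDM2 and BAX were called lower in the 15-library fit, where 2.48% of all genes were. MDM2, the ligase that degrades p53, stood at 291, 320 and 264 CPM against 236, 250 and 240 CPM. Among 17 genes of ERK output, 5 (29.4%) lay above and 1 (5.88%) below. DUSP6, a phosphatase that acts on ERK, stood at 129, 122 and 214 CPM against 265, 220 and 269 CPM. Of the DNA methylation enzymes, DNMT1 and DNMT3B were called higher in the 15-library fit, where 2.47% of all genes were. DNMT1 stood at 162, 146 and 160 CPM against 231, 237 and 175 CPM. Of 8 tested, 2 (25%) lay above and none below.

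The remaining lists are given by their counts, to be read against 14.8% above and 15% below over all genes. Above and below without overlap were 6 (22.2%) and 2 (7.41%) of 27 interferon response genes, 1 and 2 of 18 antigen presentation genes, 4 and 1 of 25 cell cycle genes, 2 and 2 of 16 Wnt targets, 1 and 4 of 22 TGF-beta genes and 3 and 4 of 20 NRF2 targets. STAT2, a transducer of the interferon signal, stood at 17.6, 14.6 and 22.3 CPM against 26.6, 29.1 and 25.3 CPM. It was the single interferon gene called in the 15-library fit, which called 2.47% of all genes higher. The counts were 3 (23.1%) and 0 of 13 clustered protocadherins, 4 (7.14%) and 0 of 56 histone genes, 0 and 1 of 6 cancer-testis genes, 11 (6.88%) and 14 (8.75%) of 160 chromosome 19 zinc finger genes, and 0 and 0 of 4 metallothioneins. Of 7 genes that the study followed for splicing, 2 lay above and 1 below in total level, and exon use was not analysed here. MALAT1 and NEAT1, which are kept in the nucleus, held 0.0961% to 0.112% and 0.0027% to 0.0048% of gene reads and overlapped between the lines.

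**Figure D5:**
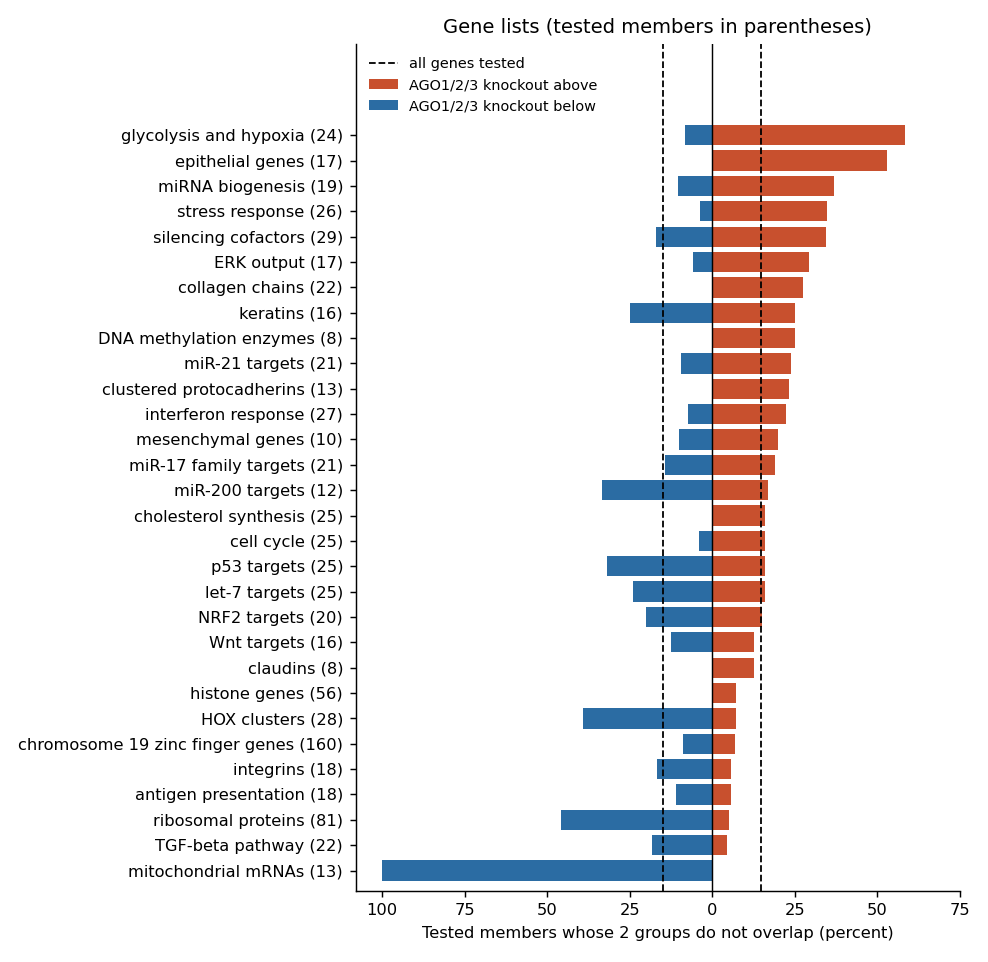
For each list with at least 8 tested members, bars give the percent of tested members whose CPM lay above (red, to the right) or below (blue, to the left) in all AGO1/2/3 knockout libraries, without overlap. Dashed lines mark the same shares over all 16509 genes (14.8% and 15%), and the mitochondrial messages, at 100% below, and the glycolysis and epithelial lists, at 58.3% and 52.9% above, lie farthest from them.

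The median log2 difference per chromosome lay between -0.04 (chromosome 18) and 0.05 (chromosome 4), against -0.72 for the 24 tested genes of the mitochondrial genome. In runs of 100 neighbouring tested genes, the medians lay between -0.08, on chromosome 7, and 0.11, on chromosome 19 (chr19:45506579-50969673), where 24 genes lay above and 12 below without overlap. The next highest was 0.09, on chromosome 14, and no test was made of runs or chromosomes.

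In nuclear RNA of the same lines, 113 of 17725 genes were called (0.638%), 94 higher (0.53%) and 19 lower (0.107%). PCDH7 was called there too, with a log2 difference of 1.58 ± 0.14, as were ODAD2 (0.94), MAGI1 (0.72), SYT1 (0.90), DCLK1 (-1.16) and TM4SF18 (-1.001). Of the 113 genes, 45 were small nuclear, nucleolar or other structural RNAs and 52 were protein-coding. The shares of these classes among all 17725 genes were not worked out. In the cytoplasm 99 were tested, where 69 had a difference of the same sign, 43 of those with an unadjusted p under 0.05. Over all genes tested in the cytoplasm 24.5% had such a p, in either direction, and the share of the same sign was not worked out. The nuclear and cytoplasmic libraries carry the same passage numbers, and whether they came from the same cultures is not given in the sources used here.

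The difference between the fractions was tested as an interaction, and 1 of 19009 genes was called (0.00526%), with 2583 (13.6%) at an unadjusted p under 0.05. That gene is SNORA61, a small nucleolar RNA that guides pseudouridylation, at chr1:28579764-28579893. It had 17.1, 10.7 and 13.8 estimated reads in AGO1/2 knockout cytoplasm and is listed at 0 in all 3 AGO1/2/3 knockout cytoplasm libraries, at least 4.8-fold lower when 3 reads per library are taken as the floor. In the nucleus it had 315, 250 and 427 reads against 772, 651 and 544 reads, and was called higher, with a log2 difference of 1.21 ± 0.14. It is also listed at 0 in 1 wild-type and 2 AGO2 knockout cytoplasm libraries.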

How the data were processed

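RNA-seq was carried out by the authors on cytoplasmic and nuclear RNA, with ribosomal RNA removed and stranded, paired-end libraries. Submitters' notes name STAR 2.5.3a, Salmon 0.11.0 and DESeq2 and the hg38 build. The estimated counts, as deposited, are the reads Salmon assigned to each transcript, not normalized. The TPM, as deposited by the authors, are scaled for effective length and library total. GENCODE release 44 was used to match transcripts to genes: 196040 of 200401 (97.82%) matched 58425 genes. Counts were summed per gene, rounded and tested with edgeR 4.0.16 (R 4.3.3; TMM, filterByExpr with a minimum count of 10, quasi-likelihood) on the 6 libraries. DESeq2 1.42.0, limma 3.58.1 on log2(TPM + 1) or log2(TPM + 0.1), and a fit of all 15 cytoplasmic libraries were alternatives, and exact permutation was used for AGO levels. On simulated cytoplasmic data with 16509 genes, edgeR recovered 35 of 100 genes changed by 0.5 log2 and 82 of 100 changed by 1, with 9 false calls. DESeq2 recovered 50 and 83, with 36 false calls. The simulation drew each gene independently, without a shift shared by a whole library, so that these rates need not hold for the real libraries. Replicates of a line were not duplicates (chi-square per gene 28.9 to 129). The named genes are AGO genes, the 12 protein-coding genes of largest change each way and up to 4 long non-coding RNAs each way that were called and did not overlap (5 and 1 TPM on the higher side), called list members, and genes called in the interaction. The rule was written for the 6-library calls and applied to those of the 15-library fit once the 6-library fit had called 1 gene. The members, lists and this comparison were chosen with earlier results of these data known.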

Additional observations from a re-analysis of the deposited data

Results flagged for a closer look

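SNORA61 met the rule for an effect that differs between the fractions: the cytoplasmic minus the nuclear log2 difference of AGO1/2/3 against AGO1/2 knockout was -7.91 (edgeR interaction, adjusted p = 0.0089). The size of this value depends on how zeros are treated, because the gene is listed at 0 in the AGO1/2/3 knockout cytoplasm, and the reads behind it on the other side were 17.1, 10.7 and 13.8 per library. Groups of 3 libraries are too small for a search for outlying samples.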

How the results depend on the processing

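The cytoplasmic count of 1 gene was 1682 with DESeq2, 998 with no low-count filter, 872 with all 15 libraries and 0 to 3124 when 1 library was left out. The count was 3124 without passage 11, 2 (ODAD2 and PCDH7) without passage 10 and 0 without passage 9 of the AGO1/2 knockout, and 5, 6 and 0 without passages 11, 12 and 14 of the AGO1/2/3 knockout. The counts of 0 by edgeR came with 2806 and 3756 genes at an unadjusted p under 0.05. Alternatives chosen after seeing the data gave 6 calls with a robust prior, 1660 with the 12 knockout libraries and 1100 at an adjusted p of 0.1. RLE factors, a mean count of at least 50 and protein-coding genes alone left PCDH7 as the single call, and length-scaled TPM called TLCD4 and limma SNORA61 (both lower) in its place. The 15-library count of 872 was 5 to 2312 without 1 library. The nuclear count of 113 was 1444 with DESeq2, 1783 with no filter, 659 with all 15 libraries, 3938 and 4047 with limma on log2(TPM + 1) and log2(TPM + 0.1), and 0 to 4687 without 1 library (4687 without passage 11 and 14 without passage 9 of the AGO1/2 knockout, 56 without passage 12 and 0 without passage 11 or 14 of the AGO1/2/3 knockout). The interaction count of 1 was 245 with DESeq2, 6 with RLE factors, 263 with no filter and 1 to 227 without 1 library (227 without passage 14 of the AGO1/2/3 knockout cytoplasm). The cause of these moves was not tested. The 28 genes named in the cytoplasm outside the AGO family and the interaction kept their sign in all 472 values of the 17 alternatives run for each or most of them. They were chosen for groups that do not overlap in these same libraries, so that the kept sign is no support for them. Of the 472 values, 133 were calls.

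No paired analysis was possible for the cytoplasmic and nuclear comparisons because the lines share 1 passage number. For the interaction, the fit with culture as a replicate block called 10 genes. Correlations of the deviations of the cytoplasmic and nuclear libraries of a passage were -0.031, 0.239 and 0.382 in AGO1/2 knockout and -0.014, 0.103 and 0.027 in AGO1/2/3 knockout cells. With the other passages of the line the means were 0.015, -0.095 and -0.215, and 0.007, -0.051 and -0.013. The own-passage value was the higher for passages 10 and 11 of the AGO1/2 and 12 and 14 of the AGO1/2/3 knockout. For the first passage of each line it was the lower. The main interaction fit did not pair the libraries, and whether the fractions shared cultures was not tested.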
